A study of Mus musculus with 12 samples.

Results

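The muscle ubiquitin ligases are 6 of the 18079 genes in the expression table, and they were followed in the left ventricle of 12 mice. Fbxo32, Fbxo40, Trim63, Trim55, Trim54 and Asb2 were taken by gene symbol, with no threshold on their values, and all 6 were among the 11664 genes that reached an FPKM (reads scaled by transcript length and library size) of 1 in at least 3 mice. Every mouse was labelled C57BL/6 (male C57BL/6J in the study's methods), was operated on at 8 weeks of age and was sampled at 12 weeks, 4 weeks after descending aortic banding (AB), which narrows the aorta and loads the ventricle with pressure, or after a Sham operation. Hispidulin, a plant flavonoid, was injected into the abdomen once daily at 20 mg/kg from 1 day ahead of surgery, and the control mice received DMSO, the solvent. The 4 groups were named DMSO+Sham and DMSO+AB, which had no drug, and Hispidulin+Sham and Hispidulin+AB, which did, with 3 mice and 1 library per mouse in each, and no mouse was free of both injection and operation. Whole left ventricular tissue was sequenced, so the values are averages over all its cell types.

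A ubiquitin ligase attaches ubiquitin to chosen proteins, which the proteasome then degrades. Fbxo32 (atrogin-1, also MAFbx) and Fbxo40 encode F-box proteins, which hold the substrate in a cullin 1 complex. Trim63, Trim55 and Trim54 (MuRF1, MuRF2 and MuRF3) encode RING ligases of the sarcomere and the microtubules that bind each other, and Asb2 encodes the substrate receptor of a cullin 5 complex that degrades filamins. In skeletal muscle, Fbxo32 and Trim63 are switched on by FoxO transcription factors and glucocorticoids during wasting and held down by insulin and Akt signalling. Fbxo40 degrades the insulin receptor substrate Irs1 in skeletal muscle. In the heart, atrogin-1 degrades calcineurin, a driver of hypertrophy, while MuRF1 acts on troponin I and myosin.

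The 250 bases ahead of the transcription start are shown for the 2 MuRF genes with a window in RefSeq's mouse promoters (GRCm38.p6) and for Fbxo40, because FoxO and the glucocorticoid receptor are the known inducers of this gene group and the genes differ in holding their motifs. Capitals mark the forkhead core GTAAACA and the glucocorticoid receptor hexamer AGAACA, searched on both strands. The genes are Trim63 (chr4:134314870-134315119, plus strand), Trim54 (chr5:31116362-31116611, plus strand) and Fbxo40 (chr16:36990468-36990717, minus strand), each read 5′ to 3′ on the gene's own strand.
Trim63: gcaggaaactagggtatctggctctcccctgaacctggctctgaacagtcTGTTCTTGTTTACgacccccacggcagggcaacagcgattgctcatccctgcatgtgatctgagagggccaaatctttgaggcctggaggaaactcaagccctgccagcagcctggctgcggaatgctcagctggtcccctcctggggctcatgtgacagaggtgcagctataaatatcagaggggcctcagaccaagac
Trim54: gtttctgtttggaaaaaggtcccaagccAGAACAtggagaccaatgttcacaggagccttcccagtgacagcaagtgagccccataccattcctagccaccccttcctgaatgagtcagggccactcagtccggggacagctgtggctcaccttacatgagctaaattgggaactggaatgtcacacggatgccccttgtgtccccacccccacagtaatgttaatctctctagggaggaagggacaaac
Fbxo40: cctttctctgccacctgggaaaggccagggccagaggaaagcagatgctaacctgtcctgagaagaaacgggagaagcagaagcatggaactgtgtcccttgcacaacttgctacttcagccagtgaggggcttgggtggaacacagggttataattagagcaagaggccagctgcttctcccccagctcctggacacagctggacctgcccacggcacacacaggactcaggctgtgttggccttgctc
The Trim63 window held the hexamer at bases -200 to -195 from the start and the forkhead core at bases -194 to -188, both on the other strand, next to each other without overlap. The forkhead core is present in 3.17% of 32851 RefSeq promoter windows of this length, the hexamer in 16.1% and both in 0.691%. The Trim54 window held 1 hexamer at bases -222 to -217 and no forkhead core, and the Fbxo40 window held neither. A second Fbxo40 start had 1 hexamer in its window, and the 2 windows of Asb2 had neither motif. The E-box CANNTG, which muscle transcription factors bind and which 66.2% of all windows hold, was found 3 times in the Trim63 window, 2 times in that of Trim54 and 4 times in the Fbxo40 window shown. The MEF2 pattern (CTA, 4 bases of any kind, TAG) was found in none of the 6 windows of these 4 genes and in 3.20% of all windows. These are matches of letters, and binding was not measured.

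A check of marker genes, with the atrial marker chosen after the values were seen, showed 3 libraries apart in atrial genes. Leaving them out was not planned. Myl7, the atrial myosin light chain, was listed at 333 FPKM in Hispidulin+Sham replicate 3, 67.5 in DMSO+AB replicate 2 and 42.3 in Hispidulin+AB replicate 3, against 0.240 to 15.03 in the other 9, and for the ligases and pathway genes called below the value without these 3 is also given. The 10 cardiomyocyte markers summed to between 54062 and 75027 FPKM in every library, and the skeletal muscle myosins Myh1, Myh2 and Myh4 reached at most 0.0300 FPKM, so these skeletal myosins were at or near 0. DMSO+Sham replicate 3 stood apart in 1 of those 10 markers. Its Actc1, the cardiac actin, was at 2741 FPKM against 7909 to 11562 in the other 11 libraries. Of the 6 macrophage markers, it had the highest C1qa (123 FPKM), C1qb (123.0) and Adgre1 (11.1) of all 12. Other libraries were higher in Lyz2 (208 FPKM in DMSO+AB replicate 2 against 180), Cd68 (9.75 in Hispidulin+AB replicate 3 against 8.48) and Csf1r (15.86 in Hispidulin+Sham replicate 3 against 14.55). The 11 skeletal muscle markers summed to 27.1 to 38.7 FPKM in DMSO+Sham and 46.9 to 86.6 in DMSO+AB, most of it Myl1, and of the 3 that could be tested Myl1 was called higher and Tnni2 lower. The 8 fibroblast markers summed to between 346 and 483 FPKM in the Sham mice, 406 to 987 in DMSO+AB and 407 to 656 in Hispidulin+AB. Hispidulin+Sham replicate 3 had the highest value of each of the 5 red blood cell markers, such as Hba-a1 at 3845 FPKM. Their sums were 3451 to 10251 FPKM in Hispidulin+Sham and 2688 to 4391 in DMSO+Sham, and their part in the results was not tested. The libraries of a group had rank correlations of 0.968 to 0.986 over all genes. Read depth is unknown, because the low FPKM values gave no steps of whole reads.

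The ligases were abundant messages, and their levels spanned a wide range. FPKM is scaled by transcript length, so it can be set side by side between genes. Averaged over the 12 mice, Trim54 was highest at 233 FPKM, followed by Asb2 at 156, Trim63 at 151, Fbxo40 at 79.5, Trim55 at 38.8 and Fbxo32 at 38.5, which placed them between rank 360 and rank 1905 of 11664 genes. Trim54 exceeded Asb2 in 11 of 12 mice, Trim63 exceeded Fbxo40 in 11 and Fbxo40 exceeded Trim55 in 12. Asb2 and Trim63 were not separable, with Asb2 higher in 9 mice and a ratio of means of 1.03, and neither were Trim55 and Fbxo32, with Trim55 higher in 9 mice and a ratio of 1.01. The 6 genes together summed to between 573 and 805 FPKM per mouse.

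The genes also differed in how much mice of 1 group varied. The within-group SD on the log2 scale was 0.45 for Asb2, 0.38 for Fbxo32 and 0.35 for Trim63, which is more than that of 95.98%, 93.8% and 92.2% of the 5367 genes with a mean of at least 10 FPKM. For Trim55, Trim54 and Fbxo40 it was 0.18, 0.18 and 0.16, beside a median of 0.16 over those genes. The first 3 genes are therefore read with wider errors than the last 3.

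**Figure D1:**
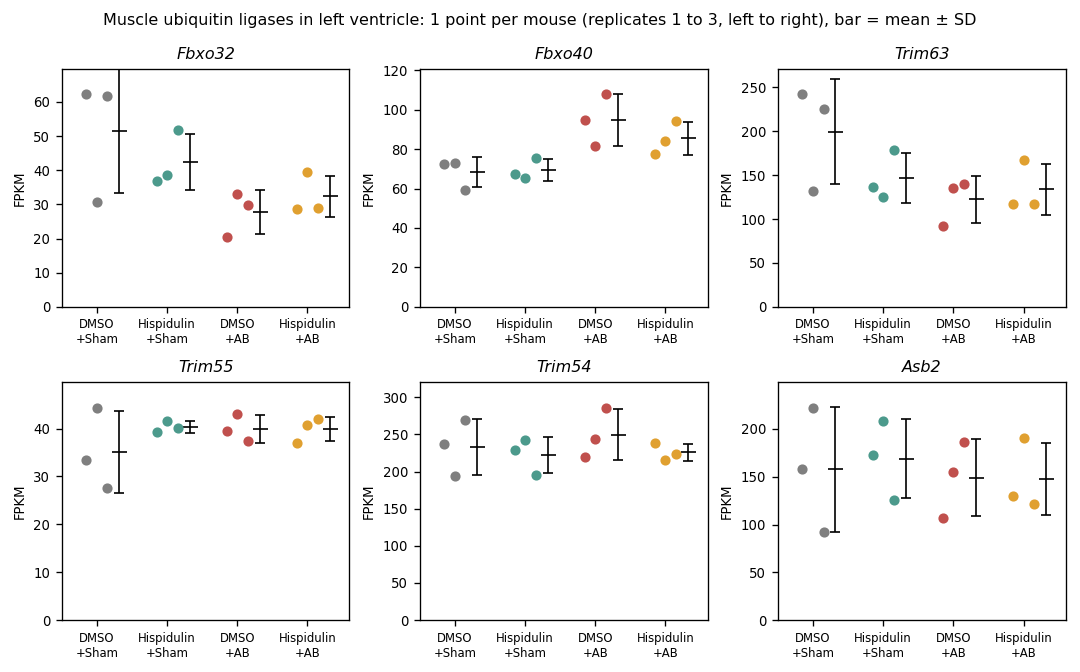
FPKM of each ligase (vertical axes from 0) in the 3 mice of each group, with the group mean ± SD as the bar at the right of the points. For Fbxo40 the 6 AB mice lie between 77.5 and 108 FPKM, above all 6 Sham mice, while the groups overlap for the other 5 genes.

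The first question was how pressure overload changed these genes. Fbxo40 was the one ligase of the 6 that passed the test in a comparison of this study, and it was higher with AB. Its FPKM was 72.6, 73.0 and 59.4 in the DMSO+Sham mice, 67.5, 65.3 and 75.7 in Hispidulin+Sham, 94.7, 81.7 and 108 in DMSO+AB, and 77.5, 84.2 and 94.5 in Hispidulin+AB. Each AB mouse was above each Sham mouse, in both treatments and over all 12 mice, where the lowest AB value was 77.5 and the highest Sham value 75.7. The means were 68.9 ± 6.05 FPKM (SD, n = 6) in Sham and 90.1 ± 11.1 (SD, n = 6) in AB.

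With AB averaged over both treatments, Fbxo40 rose 1.30-fold, a change of 0.38 on the log2(FPKM + 1) scale (SE 0.09, 95% interval 0.18 to 0.57, limma adjusted p = 0.0269 over all 11664 genes). In that comparison 862 genes (7.39%) were called at an adjusted p under 0.05, 411 higher and 451 lower, so a call was not rare. The groups did not overlap for 578 genes (4.96%) when all 6 AB and 6 Sham mice were set against each other. Permuting AB and Sham within each treatment gave an exact two-sided p of 0.005 for Fbxo40, the smallest that 400 arrangements can give. That p follows from the lack of overlap itself, so it adds nothing to it, and it was not corrected for the 6 genes. In tissue of mixed cells, more RNA per muscle cell and more muscle cells cannot be told apart.

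In DMSO mice alone the Fbxo40 mean went from 68.3 ± 7.77 FPKM (SD, n = 3) with Sham to 94.7 ± 13.03 (SD, n = 3) with AB, a log2 difference of 0.46 (SE 0.13, 95% interval 0.19 to 0.74). The limma p was 0.00331 and the adjusted p 0.0574, so the gene was not called there. That comparison called 608 of 11664 genes (5.21%), 292 higher and 316 lower, and the groups did not overlap for 2092 genes (17.9%). In Hispidulin mice, where the groups did not overlap for 2438 genes (20.9%), the means were 69.5 ± 5.48 (SD, n = 3) and 85.4 ± 8.54 (SD, n = 3), a log2 difference of 0.29 (95% interval 0.02 to 0.57, adjusted p = 0.669), and no gene of 11664 was called by limma (0%), although 847 had an unadjusted p under 0.05 and 17 were called with the replicate number as a block, none of them a ligase. With 3 mice against 3, the exact permutation p was 0.1 in both, the smallest it can be.

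Whether Fbxo40 was called depended on single libraries and on the normalization, while its direction did not. With quantile normalization of all libraries, the call averaged over both treatments was lost (limma adjusted p = 0.053). Averaged over both treatments, the log2 change stayed between 0.30 and 0.44 over the 22 alternatives and the adjusted p ranged from 0.0156 to 0.0990. The call was lost without Hispidulin+Sham replicate 1 (adjusted p = 0.0661), Hispidulin+Sham replicate 2 (0.0753), Hispidulin+AB replicate 2 (0.0549) or Hispidulin+AB replicate 3 (0.0745), and without the 3 libraries with high atrial genes, where the log2 change was 0.42 (limma adjusted p = 0.0990). The mice carry animal numbers in the labels, which do not call them a batch. Among numbers starting with 5, the log2 difference was 0.55 (2 AB and 3 Sham mice), and among numbers starting with 6 it was 0.33 (4 AB and 2 Sham mice). Of the 8 fibroblast markers, 3 were called higher in DMSO+AB and 4 with the average. All 8 had a positive log2 difference in both (list medians 1.33 and 0.85). Their sums, in which Dcn was the largest value (261 to 470 FPKM), overlapped between AB and Sham as given above. The part of these markers in the result was not tested.

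Fbxo32 had the opposite direction to Fbxo40 and a wider error. Its FPKM was 62.2, 30.6 and 61.7 in DMSO+Sham, 36.7, 38.7 and 51.9 in Hispidulin+Sham, 20.5, 33.0 and 29.7 in DMSO+AB, and 28.8, 39.4 and 28.9 in Hispidulin+AB. DMSO+Sham replicate 2 sat among the AB mice, and the DMSO groups overlapped through it, while the Hispidulin groups overlapped through Hispidulin+AB replicate 2. In DMSO mice the mean was 51.5 ± 18.1 FPKM (SD, n = 3) with Sham and 27.8 ± 6.48 (SD, n = 3) with AB, a log2 difference of -0.83 (SE 0.27, 95% interval -1.41 to -0.25, limma adjusted p = 0.1002). Averaged over both treatments, the difference was -0.60 (SE 0.19, 95% interval -1.01 to -0.19, adjusted p = 0.0754), and the exact permutation p within treatments was 0.035, with no correction for the 6 genes. Fbxo32 was thus not called, and in Hispidulin mice its difference was -0.38 (adjusted p = 0.852). Of the 10 cardiomyocyte markers, 3 were lower in DMSO+AB, namely Atp2a2, Pln and Ryr2 at -0.68, -0.62 and -0.59 (adjusted p = 0.0227, 0.0396 and 0.0364), and their part in the Fbxo32 difference was not tested.

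Trim63 followed Fbxo32. Its FPKM was 242, 132 and 225 in DMSO+Sham, 136, 125 and 178 in Hispidulin+Sham, 92.1, 135 and 140 in DMSO+AB, and 118, 167 and 117 in Hispidulin+AB. Again DMSO+Sham replicate 2 lay within the AB range, while the other 2 mice of its group were the highest of all 12. The DMSO means were 199.5 ± 59.5 FPKM (SD, n = 3) with Sham and 123 ± 26.5 (SD, n = 3) with AB, a log2 difference of -0.67 (SE 0.25, 95% interval -1.21 to -0.14, limma adjusted p = 0.143). Averaged over both treatments it was -0.40 (95% interval -0.78 to -0.03, adjusted p = 0.186), with an exact permutation p of 0.08. Trim63 was not called either, and in Hispidulin mice it differed by -0.13 (adjusted p = 0.962).

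Both results turned on DMSO+Sham replicate 2. Without that library, the log2 difference of DMSO+AB from DMSO+Sham was -1.16 for Fbxo32 (limma adjusted p = 0.00954) and -0.95 for Trim63 (0.0227), and both were called, as was Fbxo40 at 0.51 (0.0467). That setting called 1050 of 11664 genes, beside 608 with all libraries. Over the 23 alternatives the adjusted p ranged from 0.00954 to 0.299 for Fbxo32 and from 0.0227 to 0.375 for Trim63. With libraries weighted by their fit to the other libraries of the group, both were called as well, at -0.98 (0.0242) and -0.87 (0.0364), among 1423 genes called. Without DMSO+Sham replicate 3, the library with low Actc1, the differences were -0.66 for Fbxo32 (limma adjusted p = 0.218), -0.56 for Trim63 (0.276) and 0.37 for Fbxo40 (0.135), and averaged over both treatments they were -0.52 (0.108), -0.35 (0.257) and 0.33 (0.0361). The part of its marker levels in these results was not tested. The Sham values also split by animal number. For Trim63, Sham mice with numbers starting with 5 had 125 to 136 FPKM and AB mice 117 to 140, a log2 difference of -0.03, whereas with numbers starting with 6 the values were 178 to 225 and 92.1 to 167, a difference of -0.68. For Fbxo32 the same differences were -0.25 and -0.91. In DMSO mice alone they were 0.09 and -1.01 for Trim63 and -0.04 and -1.21 for Fbxo32, from 1 AB and 1 Sham mouse with numbers starting with 5 and 2 AB and 1 Sham mouse with numbers starting with 6. DMSO+Sham replicate 1, with a number starting with 1, had no partner in this split.

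**Figure D2:**
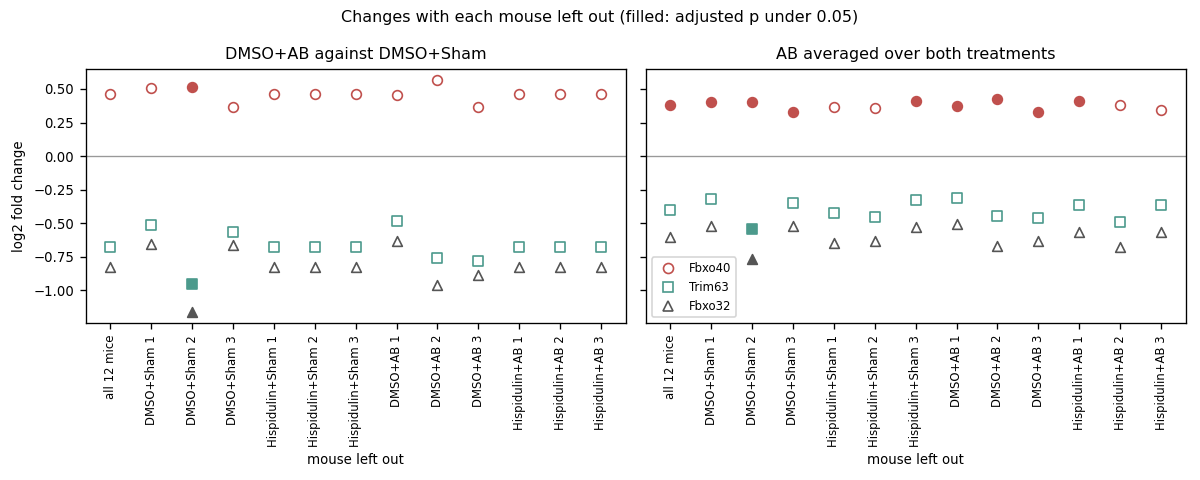
Log2 fold change of Fbxo40 (circles), Trim63 (squares) and Fbxo32 (triangles) with all 12 mice and with each mouse left out, filled where the limma adjusted p was under 0.05. Fbxo40 stays above 0 and the other 2 below 0 throughout, and in DMSO+AB against DMSO+Sham all 3 are filled in 1 place, without DMSO+Sham replicate 2.

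Fbxo32 and Trim63 varied together from mouse to mouse. Over the 12 mice, their log2 levels had a Pearson r of 0.95 and a Spearman rho of 0.88, as a description with no test. After the group means were removed r was 0.97, so the likeness held among mice of the same group. With the group means left in, r was 0.89 without the 2 mice farthest from the median. No r with the group means removed was computed without those mice. Of the 11663 other genes, Fbxo32 was the second most like Trim63 and Trim63 the fourth most like Fbxo32. The points share library preparation and scaling, and 2 DMSO+Sham mice, replicates 1 and 3, hold the upper end. Fbxo32 and Fbxo40 had an r of -0.65 over all mice and -0.17 within groups. Their ratio within a mouse, chosen after the values were seen, was 0.962 to 2.39 Fbxo40 per Fbxo32 in DMSO+Sham, 1.46 to 1.84 in Hispidulin+Sham, 2.48 to 4.62 in DMSO+AB and 2.14 to 3.27 in Hispidulin+AB. In DMSO mice the ratio did not overlap between AB and Sham (2.39 below 2.48), and in Hispidulin mice it did not either. Of single genes, 17.9% had no overlap in DMSO mice and 20.9% in Hispidulin mice, and no such share was computed for ratios. Over all 12 mice the ratio overlapped, with 2.39 in a DMSO+Sham mouse and 2.14 in a Hispidulin+AB mouse.

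**Figure D3:**
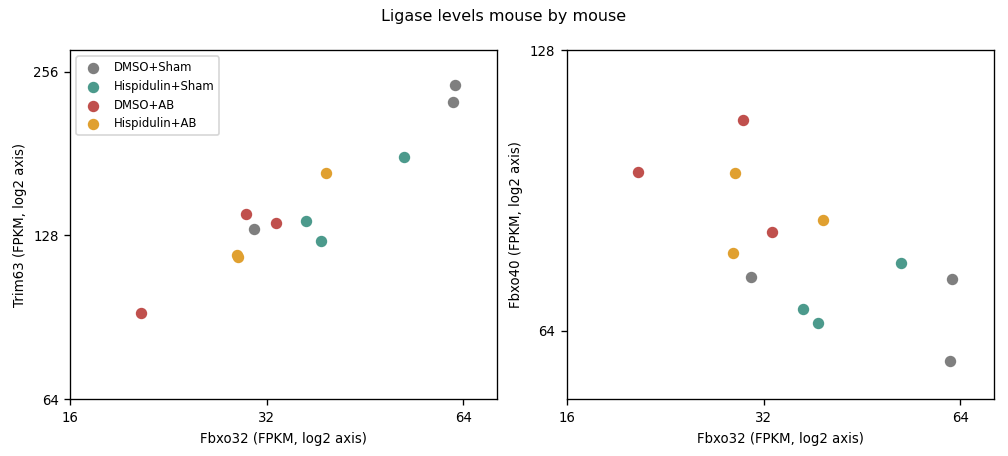
Trim63 (left) and Fbxo40 (right) against Fbxo32, in FPKM on log2 axes, 1 point per mouse and coloured by group. Trim63 rises with Fbxo32 along 1 line through all groups (r = 0.95), while the 6 AB mice sit above the Sham mice in Fbxo40.

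The other 2 MuRF genes were not called, and their groups overlapped. Trim55 was at 33.5, 44.4 and 27.5 FPKM in DMSO+Sham, 39.2, 41.6 and 40.1 in Hispidulin+Sham, 39.5, 43.0 and 37.3 in DMSO+AB, and 37.1, 40.7 and 41.96 in Hispidulin+AB. All 6 AB mice were within the range of the DMSO+Sham mice. The log2 difference of DMSO+AB from DMSO+Sham was 0.20 (95% interval -0.11 to 0.51, limma adjusted p = 0.456), so a rise of up to 0.51 is within the interval. With each library left out it ranged from 0.05 without DMSO+Sham replicate 3 (adjusted p = 0.882) to 0.38 without DMSO+Sham replicate 2 (0.0563).

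Trim54, the most abundant of the 6, was at 236, 194 and 270 FPKM in DMSO+Sham, 229, 243 and 196 in Hispidulin+Sham, 219, 243 and 286 in DMSO+AB, and 238, 216 and 223 in Hispidulin+AB. The groups overlapped, and the log2 difference of DMSO+AB from DMSO+Sham was 0.10 (95% interval -0.20 to 0.40, adjusted p = 0.716). The balance of the MuRF genes, also chosen after the values were seen, was 0.678 to 1.02 Trim63 per Trim54 in DMSO+Sham, 0.421 to 0.555 in DMSO+AB, 0.516 to 0.912 in Hispidulin+Sham and 0.495 to 0.772 in Hispidulin+AB. It did not overlap in DMSO mice, where 17.9% of single genes did not either, and did overlap in Hispidulin mice. No such share was computed for ratios.

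Asb2 varied too much between mice to show a change of moderate size. It was at 159, 222.5 and 92.0 FPKM in DMSO+Sham, 173, 208 and 126 in Hispidulin+Sham, 107, 155 and 186 in DMSO+AB, and 129.97, 190.4 and 122 in Hispidulin+AB. The DMSO+Sham mice alone spanned the range of all other groups. The log2 difference of DMSO+AB from DMSO+Sham was -0.03 with a 95% interval of -0.70 to 0.65 (limma adjusted p = 0.973), and averaged over both treatments it was -0.11 (95% interval -0.59 to 0.37).

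**Figure D4:**
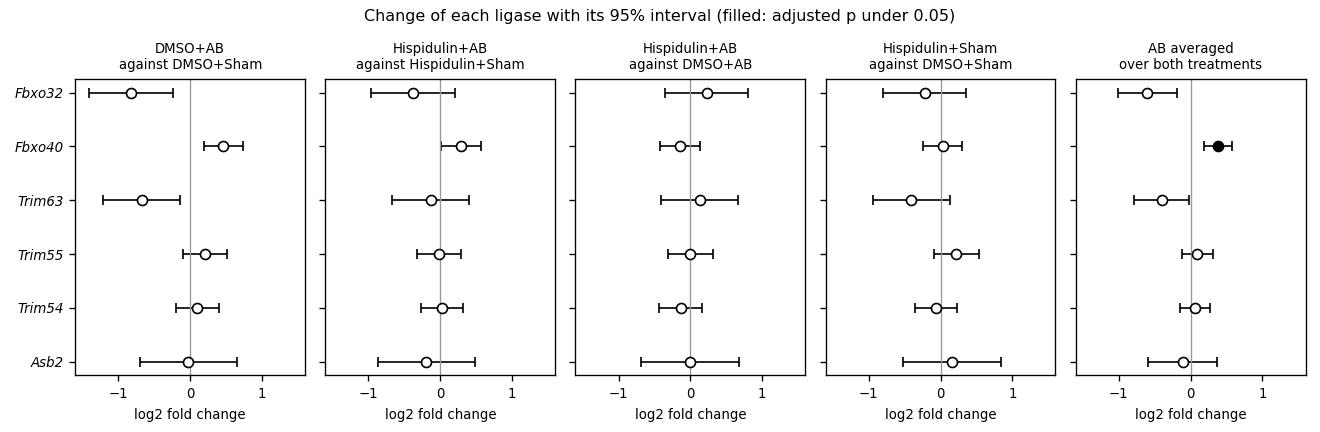
Log2 fold change of each ligase (points) with its 95% interval (bars) in 5 comparisons, filled where the limma adjusted p was under 0.05. The filled point is Fbxo40 with AB averaged over both treatments (0.38), and the intervals for hispidulin against DMSO all cross 0.

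The second question was whether hispidulin changed these genes, and no ligase was called. In AB hearts, Hispidulin+AB against DMSO+AB, the log2 differences were 0.23 for Fbxo32 (95% interval -0.35 to 0.81), -0.14 for Fbxo40 (-0.42 to 0.13), 0.13 for Trim63 (-0.41 to 0.66), 0.00 for Trim55 (-0.31 to 0.31), -0.14 for Trim54 (-0.43 to 0.16) and -0.01 for Asb2 (-0.69 to 0.67). The mice of both groups overlapped for all 6 genes. Limma called 0 of 11664 genes (0%) in this comparison, with 362 at an unadjusted p under 0.05. The intervals for Fbxo40, Trim55 and Trim54 reach no further than -0.43 and 0.31, and those for Fbxo32, Trim63 and Asb2 are wider.

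In Sham hearts, Hispidulin+Sham against DMSO+Sham, the largest difference was that of Trim63, at -0.41 (95% interval -0.95 to 0.13), with means of 199.5 ± 59.5 and 146.6 ± 28.2 FPKM (SD, n = 3 each) and overlapping mice. Over the 23 alternatives it ranged from -0.68, without DMSO+Sham replicate 2, to -0.20, with the first digit of the animal number as a covariate. Fbxo32 differed by -0.22, Trim55 by 0.22, Asb2 by 0.16, Trim54 by -0.06 and Fbxo40 by 0.03, and every interval held 0. Limma again called 0 genes (0%), with 287 at an unadjusted p under 0.05. Whether AB acted differently under hispidulin was tested as an interaction, which was 0.54 for Trim63 (95% interval -0.22 to 1.30), 0.44 for Fbxo32 (-0.38 to 1.27) and -0.17 for Fbxo40 (-0.56 to 0.22). Without DMSO+Sham replicate 2 the interaction was 0.81 for Trim63 and 0.78 for Fbxo32, and over the 22 alternatives it ranged from 0.33 to 0.86 and from 0.22 to 0.80, none of them called. No gene was called for the interaction (0%, 289 unadjusted) or for hispidulin averaged over both operations (0%, 347 unadjusted), and the second of these was between -0.14 and 0.11 for all 6 ligases. Without DMSO+AB replicate 1, 3 genes were called for the interaction and 2 for hispidulin averaged, and 0 of them were ligases.

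The third question was what the rest of the machinery did in DMSO+AB against DMSO+Sham. The regulators that act on Fbxo32 and Trim63 had 3 of 20 tested genes lower and none higher (list median -0.20, against -0.03 over all genes, of which 5.21% were called), and 4 of the 24 listed were not tested. Klf15, a glucocorticoid-induced factor that activates both ligases, fell from 54.3 ± 9.59 to 32.4 ± 5.58 FPKM (log2 difference -0.72, limma adjusted p = 0.0278). Foxo3, the FoxO factor best known as their activator, fell from 28.3 ± 7.56 to 17.1 ± 1.76 FPKM (-0.66, adjusted p = 0.0464). Akt2, a kinase that keeps FoxO factors out of the nucleus, fell from 86.8 ± 4.77 to 64.2 ± 7.10 FPKM (-0.43, adjusted p = 0.0271). The SDs are of 3 mice, and for each of these genes the DMSO+AB mice lay below all DMSO+Sham mice, a comparison in which 17.9% of all genes had no overlap. With the first digit of the animal number as a covariate, none of the 3 was called in DMSO mice (adjusted p = 0.0893, 0.145 and 0.0711), nor when only the 6 libraries compared were fitted (0.170, 0.231 and 0.224). Klf15 was also lost with no filter on low values (0.0512), Akt2 with median-of-ratios scaling (0.0553) and Foxo3 with a replicate block (0.0718), and Foxo3 was called in 4 of its 23 alternatives. Of this list, 0 to 7 genes were called with each library left out, the 7 without DMSO+Sham replicate 2, where 1050 of all 11664 genes were called, and 7 with library weights, where 1423 were.

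These 3 genes differ in how firmly they were called. With AB averaged over both treatments, Klf15 changed by -0.55, Foxo3 by -0.54 and Akt2 by -0.32, and with each library left out in turn they were called 11, 8 and 11 times of 12. Without Hispidulin+AB replicate 3 none of them was called (limma adjusted p = 0.0501, 0.0620 and 0.0521), and Foxo3 was also lost without Hispidulin+Sham replicate 2 (0.0643), DMSO+AB replicate 2 (0.0528) or Hispidulin+AB replicate 1 (0.0510). Over the 22 alternatives of the average, the highest adjusted p was 0.180 for Klf15, 0.220 for Foxo3 and 0.157 for Akt2, all without the 3 libraries with high atrial genes, where in DMSO mice alone it was 0.179, 0.258 and 0.205. In DMSO mice alone, Klf15 and Akt2 lost their calls without DMSO+Sham replicate 1, DMSO+Sham replicate 3 or DMSO+AB replicate 2 (adjusted p 0.0635 to 0.114), and Foxo3 kept its call in 1 of the 12 cases, without DMSO+Sham replicate 2. Hdac4 and Foxo4 were called with the average and, with all 12 libraries, not in DMSO mice alone (-0.40 and -0.26, adjusted p = 0.0248 and 0.0499), and without the 3 libraries with high atrial genes neither was (0.202 and 0.296). Foxo4 lost its averaged call in 18 of 22 alternatives and was called in DMSO mice without DMSO+Sham replicate 2 (0.0191) and with library weights (0.0169). Hdac4 lost its averaged call without DMSO+Sham replicate 1 (0.0533), Hispidulin+Sham replicate 2 (0.0618), DMSO+AB replicate 2 (0.0589), Hispidulin+AB replicate 1 (0.0663) or Hispidulin+AB replicate 3 (0.0611), and with the digit covariate (0.0697). The glucocorticoid receptor gene Nr3c1 (-0.15 in DMSO mice, adjusted p = 0.636) and Foxo1 (-0.17, adjusted p = 0.557) were not called.

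Other cullin adaptors of muscle included 5 genes that passed the test, all lower. Of 17 tested genes for ASB proteins, which like Asb2 serve cullin 5, and for Kelch-like proteins, which serve cullin 3, 5 were lower and none higher (list median -0.16), beside 5.21% called of all genes. With the first digit of the animal number as a covariate 2 were called. Klhl33 fell from 7.18 ± 4.20 to 1.51 ± 0.354 FPKM (log2 difference -1.59, limma adjusted p = 0.0144), Klhl38 from 23.4 ± 5.91 to 11.8 ± 3.38 (-0.94, 0.0199) and Asb15 from 20.6 ± 4.16 to 10.9 ± 2.95 (-0.88, 0.0211). Klhl21 fell from 45.3 ± 9.61 to 27.2 ± 4.20 FPKM (-0.70, 0.0330) and Asb14 from 57.3 ± 8.84 to 35.1 ± 3.25 (-0.69, 0.0106). Asb14 was at 49.2 to 66.7 FPKM in the 6 Sham mice and 32.2 to 44.6 in the 6 AB mice, and it remained called with each library left out, with AB averaged over both treatments (adjusted p 0.00231 to 0.0195) and in DMSO mice alone. Asb15, at 15.9 to 23.4 in Sham and 7.77 to 15.2 in AB, was also without overlap. Of all genes, 4.96% had no overlap between the 6 AB and the 6 Sham mice.

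These adaptor calls were also lost without the 3 libraries with high atrial genes (adjusted p of 0.0899 to 0.182 with AB averaged over both treatments and 0.121 to 0.210 in DMSO mice alone), with log2 changes that kept their sign. In DMSO mice, 1 to 6 genes of the list were called with each library left out and 0 to 5 over the other alternatives. The average called 0 to 10 over those other alternatives. With each library left out the average called 4 to 7 genes of the list. Klhl21 was the one that lost its call there, without DMSO+Sham replicate 1 (0.0680), Hispidulin+Sham replicate 2 (0.0707), DMSO+AB replicate 2 (0.0563), Hispidulin+AB replicate 1 (0.0681) or Hispidulin+AB replicate 3 (0.0632). In DMSO mice alone, calls were lost without DMSO+Sham replicate 1 (Klhl38, Asb15 and Klhl21), DMSO+AB replicate 2 (Klhl33, Klhl38, Asb15 and Klhl21) or DMSO+AB replicate 3 (Klhl33 and Asb15), and for Klhl21 also without DMSO+Sham replicate 3, DMSO+AB replicate 1, Hispidulin+AB replicate 1 or Hispidulin+AB replicate 3, at adjusted p of 0.0524 to 0.128, and all 5 were lost when only the 6 libraries compared were fitted (0.128 to 0.194). The members that fell are substrate receptors as Asb2 is, and Asb2 itself was not called. In the same comparison of DMSO mice, 3 of 8 fibroblast markers were higher (list median 1.33) and 3 of 10 cardiomyocyte markers lower (list median -0.27), and their part in the adaptor differences was not tested.

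**Figure D5:**
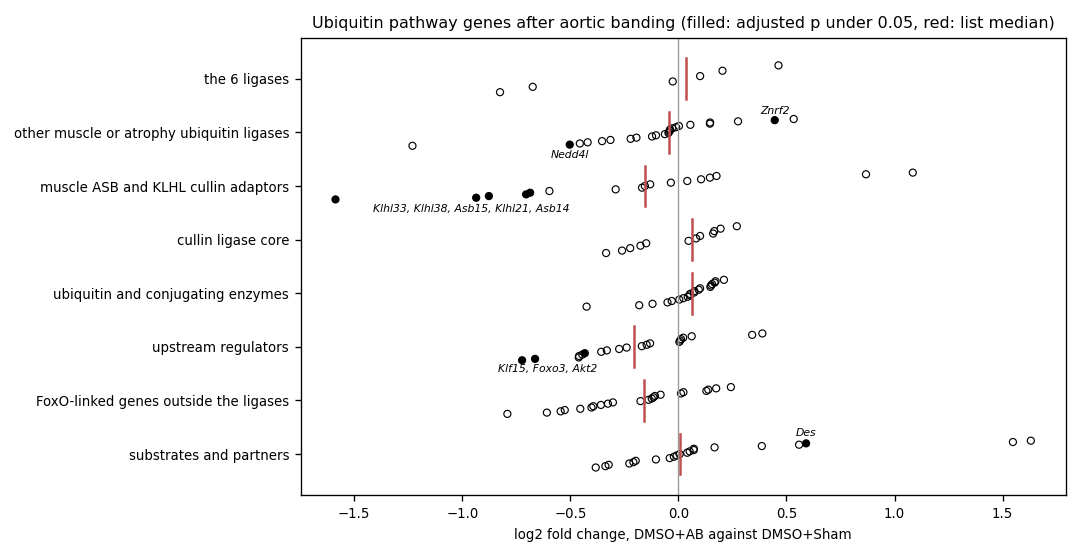
Log2 fold change in DMSO+AB against DMSO+Sham of every tested gene of 8 lists (points, ordered within a row), filled and named where the limma adjusted p was under 0.05, with the list median as a red line. The 5 named adaptors and 3 named regulators lie below 0, and none of the 6 ligases is filled.

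The counts in the remaining parts of the pathway stand beside the 5.21% called of all genes. Of 24 other ubiquitin ligases of muscle or atrophy, Nedd4l, a HECT ligase of ion channels, was lower at 5.25 ± 0.739 and 3.40 ± 0.215 FPKM (-0.50, limma adjusted p = 0.0467) and Znrf2, a membrane RING ligase, was higher at 6.74 ± 0.150 and 9.56 ± 0.684 (0.45, 0.0305). With each of the 12 libraries left out in turn, Nedd4l lost its call every time (adjusted p 0.0512 to 0.118) and Znrf2 in 6 cases (up to 0.0936), and without the 3 libraries with high atrial genes neither was called (0.195 and 0.169). Of the 12 genes of the cullin core, which joins adaptors to the ubiquitin-loaded enzyme, none was called, and the smallest p-values belonged to Rnf7 (0.27, adjusted p = 0.273) and Cul1 (-0.26, 0.381). Of 20 genes for ubiquitin and its conjugating enzymes none was called, with Ube2b, a conjugating enzyme, at -0.42 (0.0785) and Rps27a, a ubiquitin precursor, at 0.21 (0.322). Of 22 FoxO-linked genes outside the ligases none was called either, with a list median of -0.16. Those with the smallest p were the cell cycle inhibitor Cdkn1b at -0.53 (0.0608) and the insulin receptor Insr at -0.45 (0.197). These counts changed with the setting. Without DMSO+Sham replicate 2, 5 FoxO-linked genes were called, Cdkn1b among them (0.0166), and so was Rnf7 at 0.44 (0.0204). Cdkn1b was also called with library weights (0.0184) and with the replicate number as a block (0.0465), and Ube2b with quantile normalization (0.0483) and with the first digit of the animal number as a covariate (0.0458).

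Among 21 genes for substrates and partners of the 6 ligases, 1 was higher in DMSO mice, where 5.21% of all genes were called, and 4 with AB averaged over both treatments, where 7.39% were. Des, the intermediate filament desmin, was at 1084 ± 172 FPKM in DMSO+Sham and 1636 ± 291 in DMSO+AB (log2 difference 0.59, limma adjusted p = 0.0451), and its average over both treatments was 0.53 (0.0139). The other 3, called with the average and named after their values were seen, were Myh7, the slow myosin heavy chain (1.93, 0.0228), Flnc, the muscle filamin (1.52, 0.0204), and Mybpc3, myosin binding protein C (0.47, 0.0293). Flnc was at 40.9 to 109 FPKM in Sham and 93.3 to 324 in AB, and the more widely expressed Flna was not called (0.16, adjusted p = 0.482). Irs1, the target of Fbxo40, was at 5.93 FPKM in DMSO+Sham and 4.47 in DMSO+AB (-0.32, 0.335), and Ppp3ca, a calcineurin subunit and target of atrogin-1, was at 17.8 and 18.9 FPKM (0.07, 0.839). With each library left out in turn, the averaged call held in 12 of 12 cases for Des, 9 for Flnc, 6 for Myh7 and 4 for Mybpc3, with adjusted p up to 0.0745. With all libraries kept, the averaged call of Myh7 was lost with no filter on low values (limma adjusted p = 0.0505) and with the digit covariate (0.0592). That of Flnc was lost with the digit covariate (0.0505), and that of Mybpc3 with no filter (0.0613) and with quantile normalization (0.0572). In DMSO mice alone, Des held in 2 of 12 cases with a library left out (up to 0.142). Flnc, at 1.63 in DMSO mice, was not called there (limma adjusted p = 0.0714) and was called with the replicate number as a block (0.0139). Without the 3 libraries with high atrial genes none of the 4 averaged calls held, at adjusted p of 0.170 for Des, 0.0558 for Flnc, 0.195 for Myh7 and 0.234 for Mybpc3, and Des in DMSO mice was at 0.219. These are messages, and protein levels were not measured.

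The genes whose levels followed each ligase most closely over the 12 mice are given as a description. Fbxo32 was most like Orc5 (Pearson r = 0.96), Rpap2 (0.96) and Ing1 (0.95), and Trim63 was most like Ing1 (0.97), Fbxo32 (0.95) and Pip4p1 (0.94). Ing1 was thus in both lists. Fbxo40 was most like Cdc42ep1 (0.96), Slc35f6 (0.94) and Abcb4 (0.94). Trim55 was most like Sparcl1 (0.95), Nrep (0.94) and Palld (0.94), Trim54 like Rnpepl1, Rab20 and Sdsl (0.90 each), and Asb2 like Pafah2 (0.92), Ndufa4l2 (0.91) and Ciao3 (0.91). These are the top 3 of 11663 genes in each case, over points that share libraries and groups.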

How the data were processed

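Left ventricles of 12 mice were profiled from poly(A) RNA on BGISEQ-500 with single-end reads of 50 bases. The authors deposited 1 table of FPKM per gene and mouse. The submitters' processing notes name HISAT2 2.0.4, Bowtie2 2.2.5, RSEM 1.2.12 and DESeq2 1.4.5, without their roles, and the genome build is not given in the sources used here. Depth is unknown, so no counting interval could be given. The members and gene lists were chosen with earlier results of these data known. Columns were matched to mice by label, and Gene IDs to RefSeq symbols (99.3% matched).

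Genes that reached 1 FPKM in 3 libraries were tested as log2(FPKM + 1), which understates changes of low genes, with limma 3.58.1 in R 4.3.3. The model gave each group its own mean, used all 12 libraries with 8 residual degrees of freedom and let the variance follow the mean. P-values were adjusted by Benjamini-Hochberg over 11664 genes, with calls at an adjusted p under 0.05. Single genes were also tested by exact two-sided permutation. The fit was tested on simulated data. The 6 ligases were named, with the 3 genes most like each, and from each other list up to 5 called genes (largest change first) or else the 2 with the smallest p in DMSO+AB against DMSO+Sham. Foxo1, Foxo4, Hdac4, Nr3c1, Flna, Flnc, Irs1, Myh7, Mybpc3 and Ppp3ca fall outside this rule and were chosen after their values were seen, as were the 2 ratios and the atrial marker Myl7. Replicate numbers name different animals. Same-numbered mice deviated together in the Hispidulin+Sham pairs with DMSO+Sham (every correlation above 0.1, mean 0.229) and with Hispidulin+AB (mean 0.191) and not in the other comparisons. Each group was 3 animals, and 23 alternatives were tried.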

Additional observations from a re-analysis of the deposited data

How the results depend on the processing

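In DMSO+AB against DMSO+Sham, 0 ligases were called, 2 with library weights, and 0 to 3 with 1 library left out. With AB averaged over both treatments, 1 was called, 0 with quantile normalization or without the 3 libraries with high atrial genes (chosen after seeing the data), 3 with library weights, and 0 to 3 with 1 library left out. The cause was not tested. With the replicate block, no ligase was gained or lost (Fbxo40 averaged over both treatments 0.38, adjusted p = 0.0381, 0.0269 without it), and Hispidulin+AB against Hispidulin+Sham called 17 genes in place of 0. Depth is unknown.

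All sign changes were of values not called. With quantile normalization, Trim55 and Asb2 in Hispidulin+AB against DMSO+AB were 0.0296 and 0.0262. With library weights, Fbxo40 in Hispidulin+Sham against DMSO+Sham was -0.0666. With the first digit of the animal number as a covariate, which leaves DMSO+Sham replicate 1 without weight, Asb2 was 0.0981 in DMSO+AB against DMSO+Sham and 0.0275 averaged, Fbxo32 was 0.0043 in Hispidulin+Sham against DMSO+Sham, Trim55 was 0.0265 in Hispidulin+AB against Hispidulin+Sham, and Flna was -0.11 in DMSO+AB against DMSO+Sham. Without the 3 libraries with high atrial genes, Trim55 and Asb2 in Hispidulin+AB against DMSO+AB were 0.0158 and 0.16, Fbxo40 and Trim54 in Hispidulin+Sham against DMSO+Sham were -0.0349 and 0.0285, Trim54 and Trim63 in Hispidulin+AB against Hispidulin+Sham were -0.0572 and 0.10, and Foxo1 averaged was 0.0016.

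With 1 library left out, DMSO+AB against DMSO+Sham ranged from -0.0256 to 0.21 for Trim54, -0.37 to 0.27 for Asb2 and -0.12 to 0.17 for Flna. Averaged over both treatments, Trim54 ranged from -0.00012 to 0.12 and Asb2 from -0.28 to 0.0359. In Hispidulin+AB against DMSO+AB, Trim55 ranged from -0.0476 to 0.0522, Trim63 from -0.0620 to 0.24 and Asb2 from -0.23 to 0.17. In Hispidulin+Sham against DMSO+Sham, Fbxo40 ranged from -0.0695 to 0.0774, Trim54 from -0.19 to 0.0494 and Asb2 from -0.18 to 0.45. In Hispidulin+AB against Hispidulin+Sham, Trim54 ranged from -0.0642 to 0.0899, Trim55 from -0.0528 to 0.0347 and Trim63 from -0.30 to 0.0153.

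Over all genes, DMSO+AB against DMSO+Sham called 608 genes, 383 without the filter on low values, 1423 with library weights, 142 with the digit covariate, 11 with only the 6 libraries compared, 20 without the 3 libraries with high atrial genes and from 91 (without DMSO+Sham replicate 1) to 1050 (without DMSO+Sham replicate 2) with 1 library left out. AB averaged over both treatments called 862 genes, 2535 with library weights, 547 with the digit covariate, 73 without those 3 libraries and 373 to 1210 with 1 left out. Hispidulin+AB against Hispidulin+Sham called 0, 209 with library weights, 49 with only the libraries compared and up to 10 with 1 left out, and Hispidulin+AB against DMSO+AB called 0 and up to 20.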
